A study of Mus musculus with 3 samples.

Results

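The 39 Hox genes of the mouse, out of 49943 genes in the annotation used, were taken by symbol (Hoxa, Hoxb, Hoxc or Hoxd and a number) and followed through the open chromatin of kidney cells. There were 11 in the HoxA cluster on chromosome 6, 10 in HoxB on chromosome 11, 9 in HoxC on chromosome 15 and 9 in HoxD on chromosome 2. Accessibility was measured by mtscATAC-seq, a single-cell ATAC assay in which a transposase inserts adapters into open chromatin of permeabilised cells that keep their mitochondria. The kidneys came from 3 samples, each with a mutation in trnE, the mitochondrial gene for the glutamate tRNA. Old replicate 1 was a 75-week-old kidney with a mutation load (share of mitochondrial genomes carrying it) of 75%, old replicate 2 a 75-week-old kidney with 80%, and the single young sample a 3-week-old kidney with 80%. Every group carries the mutation, and no kidney without it was analysed here. Whether the old pair are separate animals is not given in the labels. The p-values therefore speak of the spread between these libraries alone, and that spread may be technical. Loads are as the labels state them and differ within the old pair, and age cannot be told apart from whatever else sets the single young library apart.

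Hox genes encode homeodomain transcription factors that give cells of the embryo their position along the head-to-tail axis. Genes at the low-numbered end of a cluster act nearer the head, those at the high-numbered end nearer the tail, and equal numbers in different clusters are copies of one ancestral gene, called paralogs. In the mouse, the paralogs Hoxa11, Hoxc11 and Hoxd11 are together required for the metanephric kidney, and adult cells often keep a Hox pattern that reflects where in the body they arose. Polycomb proteins hold unused Hox clusters closed, and trithorax proteins keep used ones open.

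Old replicate 1 held 5656 barcodes, old replicate 2 held 4302 and the young library 4440, with a median of 16289, 13339 and 23320 counts per barcode, a count being a transposition event inside a peak. Filtering left 5315, 3950 and 3976 cells, and pairs of libraries had 28 to 39 barcode sequences in common. Old replicate 1 stood apart: 4706 of its cells were immune-like and 188 proximal tubule-like, against 10 and 3085 in old replicate 2 and 209 and 3268 in the young library. Loop to collecting duct-like cells numbered 33, 303 and 181, and endothelium-like cells 182, 102 and 48, in that order of libraries. The 10 immune-like cells of old replicate 2 were left out, so each value given for the immune-like class comes from old replicate 1 or the young library. Cells were clustered on regions outside chromosomes 2, 6, 11 and 15, so that no Hox count helped to form the classes. All 17 proximal tubule markers together reached 1335 to 1597 CPM (counts per 1000000) in proximal tubule-like cells and 374 to 414 CPM in immune-like cells, where Kap and Slc5a2 were at 0 in old replicate 1 and Slc7a13 and Slc22a6 in the young library. The 13 macrophage or dendritic cell markers reached 114 to 198 CPM in proximal tubule-like cells and 713 to 1004 CPM in immune-like cells. The 13 endothelial markers reached 892 to 2426 CPM in endothelium-like cells and at most 247 CPM in the other classes. The loop to collecting duct-like class was set apart less sharply, with the 6 distal convoluted tubule markers at 502 to 673 CPM against 378 to 443 CPM in proximal tubule-like cells. The part of these shared marker counts in the Hox values was not tested.

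Each gene was measured as the counts over regions that overlap its body or 1 kb on either side and that have a peak in every library. Its level is given as CPM of the counts of that class and library in such regions. Of the 39 Hox genes, 32 had such a region, and 31 passed the filter on low counts for the comparisons between classes; Hoxd13 did not. Hoxa13, Hoxb13, Hoxc11, Hoxc12, Hoxc13, Hoxd8 and Hoxd12 had none. Neighbouring windows overlap, and 16 of the genes share a region with another: Hoxa10 and Hoxa11 have the same counts, from 1 region between them (chr6:52240127-52241154), and the long windows of Hoxa3, Hoxb3 and Hoxd3 take in their neighbours. The 32 genes are therefore 31 distinct measurements, and genes of 1 cluster are not independent of each other. All 3 common regions of Hoxb7 are also regions of Hoxb8. The Hoxa10 and Hoxa11 region lies on 1 Hoxa10 promoter and reaches only the edge of the 1 kb beyond the downstream end of Hoxa11. A further Hoxa10 promoter (chr6:52234890-52235189) has no common region and no peak in old replicate 1, so it is not measured. The Hoxa11 promoter has no common region and no peak in old replicate 1, so the values given for Hoxa11 do not measure it.

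Promoter sequences, from 250 bases before to 50 bases after the gene start (RefSeq, build GRCm38.p6), were at hand for 22 of the 39 genes, as 24 promoters. The 4 below are shown because a common region lies on each and because the genes behind them are ones the comparisons turn on: Hoxa10 was higher in proximal tubule-like cells, Hoxd10 in loop to collecting duct-like cells, Hoxa5 in endothelium-like cells, and Hoxb4 was the HoxB gene with the highest level per kb in immune-like cells. Capitals mark CG dinucleotides, the sites of DNA methylation, in which unmethylated promoters are rich. Hoxa10 is chr6:52240805-52241104 on the minus strand, Hoxd10 is chr2:74691641-74691940 on the plus strand, Hoxa5 is chr6:52204538-52204837 on the minus strand and Hoxb4 is chr11:96318017-96318316 on the plus strand.
Hoxa10: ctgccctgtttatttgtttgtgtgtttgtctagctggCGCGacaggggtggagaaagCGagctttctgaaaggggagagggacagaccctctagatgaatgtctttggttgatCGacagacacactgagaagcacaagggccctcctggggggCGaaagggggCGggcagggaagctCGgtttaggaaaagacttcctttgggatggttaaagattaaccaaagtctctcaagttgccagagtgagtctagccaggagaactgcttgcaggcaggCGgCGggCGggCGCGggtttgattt
Hoxd10: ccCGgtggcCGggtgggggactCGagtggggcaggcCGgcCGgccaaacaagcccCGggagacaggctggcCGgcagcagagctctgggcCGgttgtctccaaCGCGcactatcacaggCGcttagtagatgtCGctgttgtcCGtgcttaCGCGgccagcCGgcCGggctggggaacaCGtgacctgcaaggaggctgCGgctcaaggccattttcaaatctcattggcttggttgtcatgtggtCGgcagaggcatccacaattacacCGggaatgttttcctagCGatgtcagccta
Hoxa5: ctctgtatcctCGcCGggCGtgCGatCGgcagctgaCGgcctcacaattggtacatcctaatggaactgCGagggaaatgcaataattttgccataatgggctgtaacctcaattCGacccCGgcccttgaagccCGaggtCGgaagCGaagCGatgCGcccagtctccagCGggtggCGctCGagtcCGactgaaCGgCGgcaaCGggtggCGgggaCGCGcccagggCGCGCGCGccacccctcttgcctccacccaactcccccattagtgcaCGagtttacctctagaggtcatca
Hoxb4: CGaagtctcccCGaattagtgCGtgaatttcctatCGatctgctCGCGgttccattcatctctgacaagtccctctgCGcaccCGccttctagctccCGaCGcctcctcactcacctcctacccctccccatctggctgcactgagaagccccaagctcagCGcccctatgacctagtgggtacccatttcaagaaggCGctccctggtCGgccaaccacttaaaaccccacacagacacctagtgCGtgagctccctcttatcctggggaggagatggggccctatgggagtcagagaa
They hold 12, 22, 29 and 14 CG dinucleotides for Hoxa10, Hoxd10, Hoxa5 and Hoxb4. The 24 Hox promoters had a median of 14.5, against 7 over 32851 mouse promoters of the same length, and ranged from 4 to 45. The core word read by homeodomains, TAAT on either strand, was in 19 of the 24 (79.2%), against 58.0% of all promoters. TGACAG, read by the MEIS cofactors, was in 2 (8.33%), against 19.2% of all. The joint HOX and PBX word TGATTNAT, which holds the core word when N is A, was in 2 (8.33%), against 3.22% of all. These are matches of letters and not binding sites.

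The clusters also carry microRNAs, short RNAs that repress messages, several of them Hox messages. The mature 5p arms (RefSeq, GRCm38.p6) of the miR-10 and miR-196 families are shown because each family has 1 seed, the bases 2 to 8 that pair with targets, given in capitals, and copies in more than 1 cluster.
mmu-miR-10b-5p: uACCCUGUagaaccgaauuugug
mmu-miR-10a-5p: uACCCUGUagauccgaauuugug
mmu-miR-196b-5p: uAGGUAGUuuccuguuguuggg
mmu-miR-196a-5p: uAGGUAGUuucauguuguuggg
The miR-10 pair shares the seed ACCCUGU and the miR-196 pair the seed AGGUAGU. Mir10b lies in HoxD, Mir10a in HoxB beside Hoxb4 and Mir196b in HoxA. The 196a arm comes from both Mir196a-1 in HoxB and Mir196a-2 in HoxC, with the same sequence. A further microRNA, Mir615 in HoxC, has another seed and is not printed.

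All 4 clusters were more open in kidney epithelium and endothelium than in immune-like cells. From here on, 3 values for a class are given in the order old replicate 1, then 2, then young, and 2 values for immune-like cells are those of old replicate 1 and young. Summed over the regions of the cluster, HoxA stood at 395, 422 and 404 CPM in proximal tubule-like cells, against 145 and 155 CPM in immune-like cells. HoxB stood at 488, 455 and 472 CPM in proximal tubule-like cells, against 115 and 119 CPM in immune-like cells. These ranges are far apart in both clusters. The HoxC sum was 197, 177 and 144 CPM in proximal tubule-like cells, against 40.5 and 40.9 CPM in immune-like cells. HoxD, the cluster that also patterns limbs and genitalia, stood at 109, 132 and 109 CPM in proximal tubule-like cells, against 15.7 and 26.3 CPM in immune-like cells. None of the 4 sums overlapped between these classes, and how often other genes overlap is not given here. In loop to collecting duct-like cells HoxB (567, 554 and 565 CPM) and HoxD (174, 181 and 179 CPM) were above proximal tubule-like cells in every library. HoxA was below them, at 304, 299 and 337 CPM. Endothelium-like cells had HoxA at 468, 426 and 425 CPM and HoxC at 59.6, 69.7 and 119 CPM, the HoxC values lying under those of both tubule classes in every library.

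**Figure D1:**
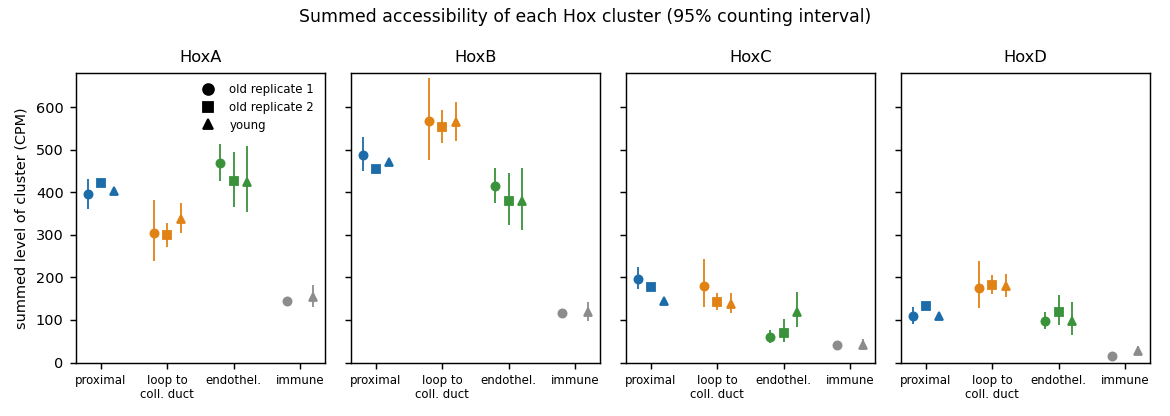
Summed accessibility of each Hox cluster, in CPM, by cell class, with 1 point per library and bars for the 95% counting interval. Immune-like cells lie lowest in every cluster, and HoxC in endothelium-like cells (59.6 to 119 CPM) lies between immune-like and tubule cells.

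**Figure D2:**
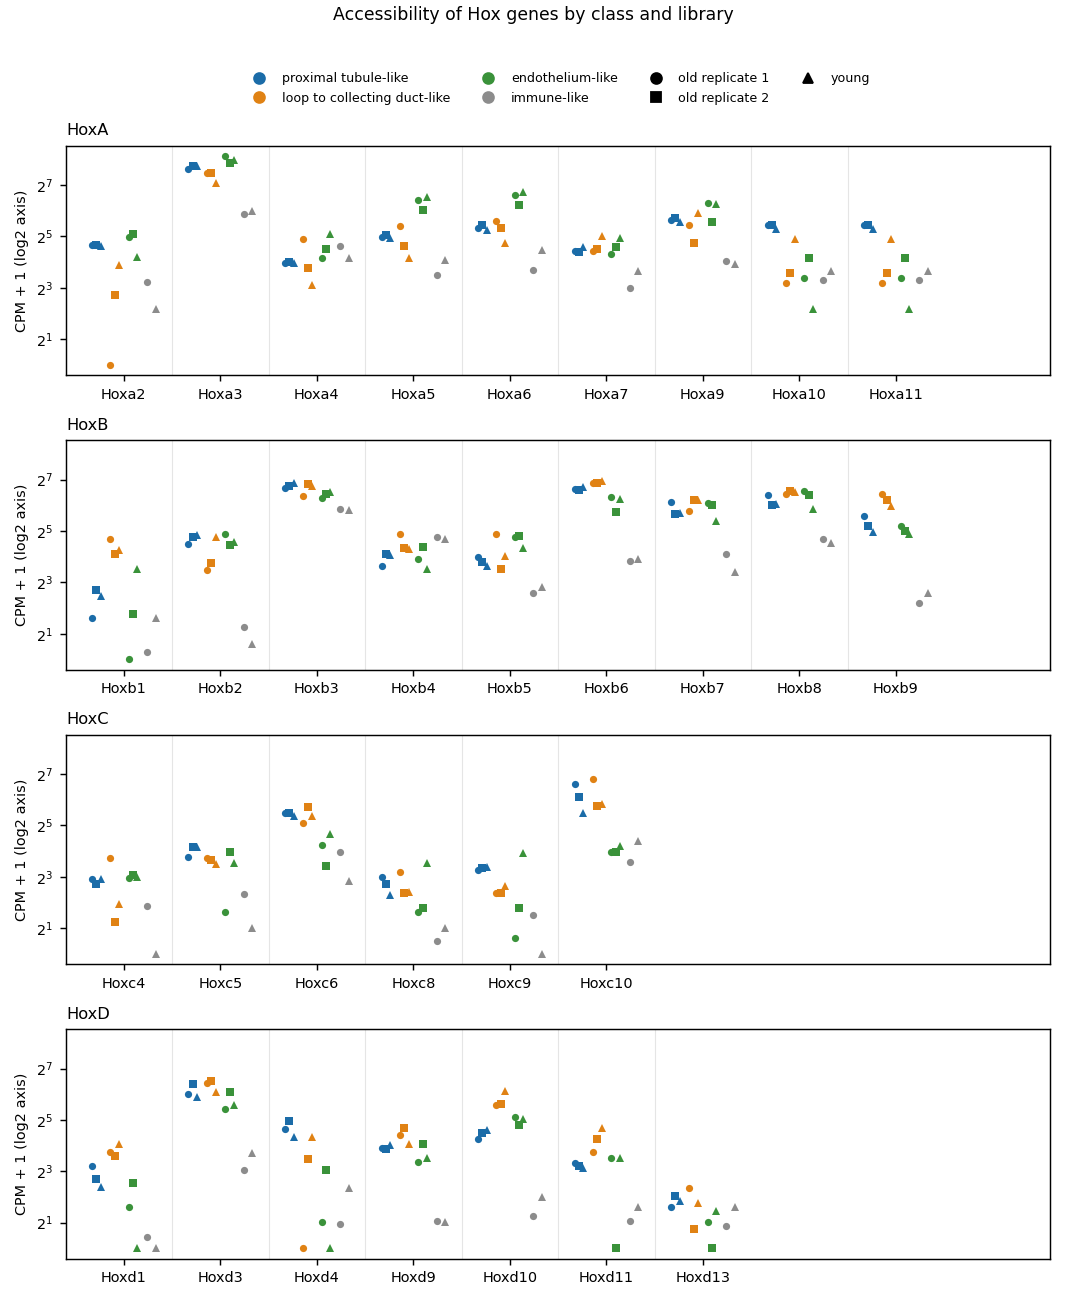
Level of the Hox genes with a common region that are reported here, as CPM + 1 on a log2 axis, in order along the 4 clusters, by class (colour) and library (marker). The immune-like points lie below the others for most genes, and Hoxa4 and Hoxb4 are among the exceptions.

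Of the 31 tested genes, 28 were higher and 0 lower in proximal tubule-like than in immune-like cells (edgeR quasi-likelihood test, Benjamini-Hochberg adjusted p under 0.05 over 23202 genes). Over all genes tested, 30.7% were called higher and 24.8% lower, 55.6% in all. The median difference was 2.20 on the log2 scale over the Hox genes and 0.03 over all genes. By paralog group, 9 of 12 tested genes of groups 1 to 4, 10 of 10 of groups 5 to 8 and 9 of 9 of groups 9 to 13 were called. Groups 9 to 13 have 16 members, and none of the tested ones was of group 12 or 13. Hoxa10 and Hoxa11, both in that count, are 1 measurement. Without old replicate 1, the immune-rich library, 24 were called, with the immune-like class then the young library alone and taken to vary like the other classes.

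Hoxb2, a hindbrain patterning gene, had the largest difference. It stood at 21.2, 26.0 and 27.9 CPM in proximal tubule-like cells and at 1.42 and 0.506 CPM in immune-like cells. The classes did not overlap, and the difference was 21.5-fold (log2 4.43, SE 0.52, edgeR adjusted p = 1.39e-06). Hoxd1, at the head end of HoxD, had 8.16, 5.57 and 4.26 CPM in proximal tubule-like cells, against 0.371 and 0 CPM in immune-like cells (log2 4.40, SE 0.97, edgeR adjusted p = 0.000892). Hoxd4, which patterns the neck vertebrae, had 24.1, 30.3 and 18.9 CPM in proximal tubule-like cells and 0.936 and 4.04 CPM in immune-like cells (log2 3.78, SE 0.75, edgeR adjusted p = 0.000357). For both genes, too, every proximal tubule-like value lay above the immune-like ones. Hoxd9 and Hoxd10 pattern the lumbar spine and hindlimb. Hoxd9 had 13.9, 13.8 and 15.1 CPM in proximal tubule-like cells, against 1.11 and 1.01 CPM in immune-like cells (log2 3.74, SE 0.56, edgeR adjusted p = 2.05e-05). Hoxd10 had 18.0, 21.6 and 23.6 CPM in proximal tubule-like cells, against 1.39 and 3.03 CPM in immune-like cells (log2 3.76, SE 0.38, edgeR adjusted p = 2.55e-07). Neither overlapped between the classes. The genes were named for large called differences, so a lack of overlap carries no further weight, here and in the class comparisons below.

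Hoxa4 and Hoxb4 were among the genes not called. Hoxa4 had 14.7, 15.3 and 14.7 CPM in proximal tubule-like cells and 23.8 and 16.7 CPM in immune-like cells (log2 -0.25, SE 0.45, edgeR adjusted p = 0.652). Hoxb4, known for promoting the expansion of blood stem cells, had 11.4, 16.3 and 15.6 CPM in proximal tubule-like cells and 26.1 and 24.8 CPM in immune-like cells. Its groups did not overlap, but the difference missed the threshold (log2 -0.69, SE 0.37, edgeR adjusted p = 0.117). Per kb of region, Hoxb4 and Hoxa4 had the highest levels of HoxB and HoxA in immune-like cells, with means of 23.7 and 21.3 CPM per kb.

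Immune-like cell types are given as values without a test, in old replicate 1 and the young library, for genes chosen after their values were seen. Hoxa5 stood at 12.9 and 22.8 CPM in macrophage or dendritic-like cells, against 0.396 and 0 CPM in T or NK-like cells. Hoxa6, which shares a region with it, stood at 14.9 and 29.9 CPM in macrophage or dendritic-like cells, against 1.88 and 0 CPM in T or NK-like cells. Both were higher in macrophage or dendritic-like cells of either library. Hoxb9, a thoracic gene, was lower there, at 1.28 and 0 CPM in macrophage or dendritic-like cells, against 13.3 and 22.3 CPM in T or NK-like cells. Hoxd3 stood at 3.52 and 12.8 CPM in macrophage or dendritic-like cells and at 22.8 and 13.4 CPM in T or NK-like cells, a gap that was wide in old replicate 1 alone. The young values rest on few counts, from 0 to 42 for these genes in either type.

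In loop to collecting duct-like cells, 22 of the 31 were higher and 0 lower than in immune-like cells, against 25.4% and 22.0% of all genes (47.4% either way). The median was 1.70 on the log2 scale, against -0.02 over all genes. Hoxd1 led, with 12.3, 11.04 and 15.6 CPM in loop to collecting duct-like cells, against 0.371 and 0 CPM in immune-like cells (log2 5.51, SE 1.01, edgeR adjusted p = 0.000269). Hoxb1, the hindbrain gene at the head end of HoxB, had 24.6, 16.2 and 18.0 CPM in loop to collecting duct-like cells, against 0.215 and 2.02 CPM in immune-like cells (log2 4.98, SE 1.08, edgeR adjusted p = 0.00112). Both lay well above the immune-like range in every library. Hoxb9 had 86.2, 72.1 and 61.9 CPM in loop to collecting duct-like cells, against 3.61 and 5.06 CPM in immune-like cells (log2 4.36, SE 0.32, edgeR adjusted p = 9.17e-09). For Hoxd10 the values were 47.2, 48.0 and 69.0 CPM in loop to collecting duct-like cells (log2 4.98, SE 0.40, edgeR adjusted p = 2.44e-08 against immune-like cells). Hoxd9 had 20.5, 24.5 and 15.6 CPM there (log2 4.06, SE 0.59, edgeR adjusted p = 2.37e-05 against immune-like cells). Without old replicate 1, again with immune-like cells of the young library alone, 19 were called.

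Endothelium-like cells had 18 of the 31 higher and 0 lower than immune-like cells, against 16.2% and 12.9% of all genes (29.1% either way). The median was 2.08 on the log2 scale, against -0.08 over all genes. Hoxb2 stood at 28.8, 20.8 and 22.8 CPM in endothelium-like cells (log2 4.22, SE 0.53, edgeR adjusted p = 8.80e-06 against immune-like cells). Hoxd10 stood at 33.5, 26.9 and 31.6 CPM (log2 4.16, SE 0.40, edgeR adjusted p = 3.82e-07), Hoxd9 at 9.41, 15.9 and 10.5 CPM (log2 3.25, SE 0.59, edgeR adjusted p = 0.000415) and Hoxb9 at 36.1, 30.6 and 28.1 CPM (log2 3.10, SE 0.33, edgeR adjusted p = 1.13e-06). None of these 4 overlapped immune-like cells, which follows in part from their choice among the largest called differences. Hoxc8, which in the mouse patterns motor neurons of the forelimb, had 2.09, 2.45 and 10.5 CPM in endothelium-like cells, against 0.410 and 1.01 CPM in immune-like cells. It passed narrowly (log2 2.99, SE 1.06, edgeR adjusted p = 0.0427), rests on 12 endothelial counts in all, and lost its call when any 1 library was left out. Hoxa10, Hoxa11 and Hoxc10, called in proximal tubule-like cells, were not called in endothelium-like cells against immune-like cells (log2 0.06 for Hoxa10 and Hoxa11 and 0.17 for Hoxc10, edgeR adjusted p = 0.948 and 0.799).

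**Figure D3:**
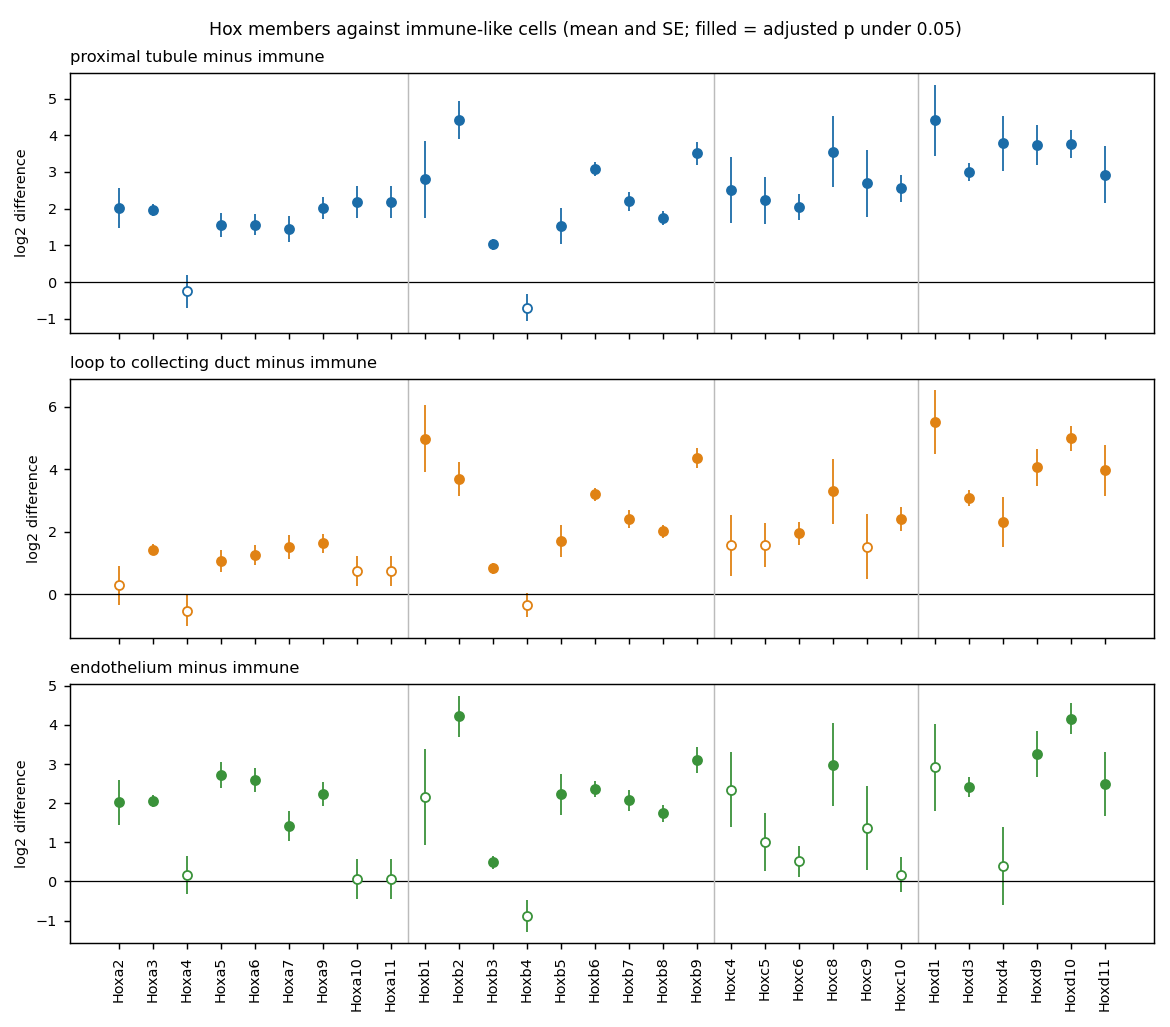
Log2 difference from immune-like cells, with its SE, for the tested Hox genes reported here, in proximal tubule-like, loop to collecting duct-like and endothelium-like cells. Filled points have an adjusted p under 0.05; they number 28, 22 and 18, and no filled point lies below 0.

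The kidney classes were then compared with each other. In proximal tubule-like against endothelium-like cells, 8 of 31 were higher and 2 lower, against 24.5% and 16.3% of all genes. The share called, either way, was thus below the 40.7% of all genes. The higher ones were Hoxd4, Hoxc10, Hoxa10, Hoxa11, Hoxc6, Hoxb6, Hoxd3 and Hoxb3, and the lower ones Hoxa5 and Hoxa6. The median was 0.40 on the log2 scale, against 0.08 over all genes.

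Hoxd4 had 24.1, 30.3 and 18.9 CPM in proximal tubule-like cells and 1.05, 7.34 and 0 CPM in endothelium-like cells, a 10.5-fold difference (log2 3.39, SE 0.76, edgeR adjusted p = 0.00161). Hoxc10, a lumbar gene that in the mouse also acts with Hoxa10 and Hoxd10 in the kidney stroma, had 96.7, 68.0 and 44.2 CPM in proximal tubule-like cells and 14.6, 14.7 and 17.6 CPM in endothelium-like cells (log2 2.38, SE 0.36, edgeR adjusted p = 4.42e-05). Without cluster 6, a subset of proximal tubule-like cells left out after its Hoxc10 level was seen, that difference was 1.71. The region shared by Hoxa10, needed for uterus and hindlimb, and Hoxa11, needed for the kidney with its paralogs, had 42.0, 42.6 and 38.4 CPM in proximal tubule-like cells and 9.41, 17.1 and 3.51 CPM in endothelium-like cells (log2 2.12, SE 0.44, edgeR adjusted p = 0.000841). It contains the whole Hoxa10 promoter printed above, but not the further Hoxa10 promoter. It lies outside the body of Hoxa11 and off its promoter. Hoxc6, a thoracic gene, had 43.7, 43.4 and 40.8 CPM in proximal tubule-like cells and 17.8, 9.78 and 24.6 CPM in endothelium-like cells (log2 1.54, SE 0.34, edgeR adjusted p = 0.00161). Without old replicate 2 it missed the threshold (edgeR adjusted p = 0.0576), as did Hoxb6, Hoxd3 and Hoxb3, and 6 Hox genes in all were called. In all 4 measurements the classes did not overlap, which again follows in part from how the genes were chosen.

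Hoxa5, which patterns the lung and the neck-to-thorax border, was the HoxA gene with the highest level per kb in endothelium-like cells. It had 30.6, 32.5 and 30.0 CPM in proximal tubule-like cells and 84.7, 64.8 and 91.3 CPM in endothelium-like cells (log2 -1.17, SE 0.26, edgeR adjusted p = 0.00168). Hoxa6 shares that region and had 39.2, 42.7 and 37.6 CPM in proximal tubule-like cells, against 97.2, 74.6 and 105 CPM in endothelium-like cells (log2 -1.03, SE 0.24, edgeR adjusted p = 0.00192). Both differences rest on the shared region (chr6:52203821-52204964), since the other region of Hoxa6 had 8.57, 10.1 and 7.61 CPM in proximal tubule-like cells, against 12.5, 9.78 and 14.1 CPM in endothelium-like cells. The neighbours Hoxa4 and Hoxa7 were not called (log2 -0.41 and 0.03, edgeR adjusted p = 0.467 and 0.958).

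Between the tubule classes, 2 of 31 were higher and 4 lower in loop to collecting duct-like than in proximal tubule-like cells. The shares of all genes were 6.84% and 13.1%. Either way it was 6 of 31 against 19.9%, which is close to the background. The median was -0.20 on the log2 scale, against -0.03 over all genes. Hoxd10 had 47.2, 48.0 and 69.0 CPM in loop to collecting duct-like cells and 18.0, 21.6 and 23.6 CPM in proximal tubule-like cells (log2 1.22, SE 0.26, edgeR adjusted p = 0.00224). The region on its promoter alone stood at 34.9, 29.7 and 44.4 CPM in loop to collecting duct-like cells and 8.98, 13.3 and 15.7 CPM in proximal tubule-like cells. Hoxb9 had 86.2, 72.1 and 61.9 CPM in loop to collecting duct-like cells and 47.4, 35.5 and 29.8 CPM in proximal tubule-like cells (log2 0.85, SE 0.21, edgeR adjusted p = 0.00686). Both genes lay higher in loop to collecting duct-like cells in every library. Hoxb1 had 24.6, 16.2 and 18.0 CPM in loop to collecting duct-like cells and 2.04, 5.47 and 4.59 CPM in proximal tubule-like cells, which do not overlap, but missed the threshold (log2 2.18, SE 0.76, edgeR adjusted p = 0.0509).

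The lower ones were all in HoxA. Hoxa2, which patterns the second pharyngeal arch, had 0, 5.52 and 13.7 CPM in loop to collecting duct-like cells and 24.5, 24.3 and 23.6 CPM in proximal tubule-like cells (log2 -1.72, SE 0.51, edgeR adjusted p = 0.0211). Most of this lay in a region shared with a neighbouring gene (chr6:52159919-52161542), at 0, 4.83 and 12.8 CPM against 18.8, 20.3 and 20.4 CPM in the same order of classes. The region on the Hoxa2 promoter had 0, 0.690 and 0.945 CPM against 5.72, 3.99 and 3.21 CPM. The Hoxa10 and Hoxa11 region had 8.21, 11.04 and 29.3 CPM in loop to collecting duct-like cells and 42.0, 42.6 and 38.4 CPM in proximal tubule-like cells (log2 -1.42, SE 0.39, edgeR adjusted p = 0.0142). Hoxa3, a gene of the thymus and parathyroid, had 177, 175 and 133 CPM in loop to collecting duct-like cells and 197, 216 and 214 CPM in proximal tubule-like cells (log2 -0.53, SE 0.13, edgeR adjusted p = 0.00714). These groups did not overlap. Without old replicate 2, which holds 303 of the 517 loop to collecting duct-like cells, only Hoxd10 was called.

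**Figure D4:**
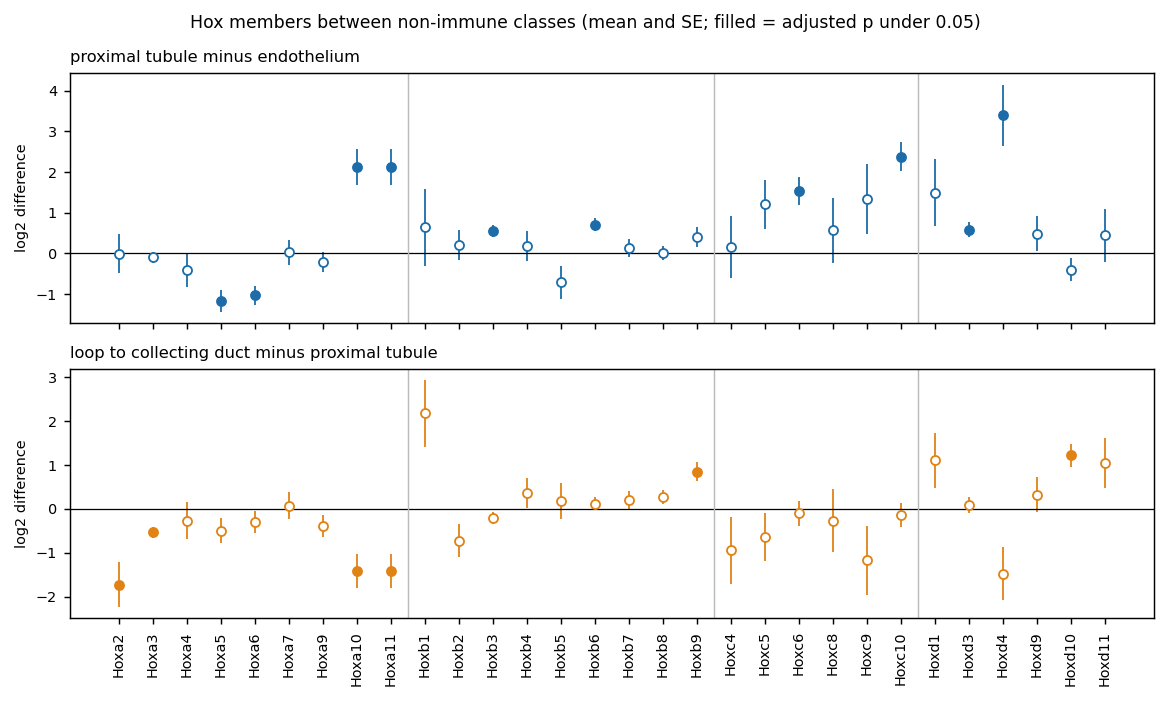
Log2 difference and SE for the tested Hox genes reported here, in proximal tubule-like minus endothelium-like cells (top) and loop to collecting duct-like minus proximal tubule-like cells (bottom), with filled points at an adjusted p under 0.05. Hoxa10 and Hoxa11 lie above 0 in the top panel (2.12) and below 0 in the bottom one (-1.42).

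The order of the genes along a cluster was set beside their level per kb of region, as a description over genes that share libraries and neighbouring regions. Genes without a common region did not enter: Hoxa13, Hoxb13, Hoxc11, Hoxc12, Hoxc13, Hoxd8 and Hoxd12. The order therefore does not cover the high-numbered ends of HoxA, HoxB and HoxC. In proximal tubule-like cells, level was higher at higher paralog numbers in HoxA (Spearman rho 0.64, Pearson r 0.81, 10 genes), where Hoxa10 and Hoxa11 enter with the same counts, and in HoxB (rho 0.75, r 0.70, 9 genes). The values were rho 0.49 and r 0.62 over 6 genes of HoxC, and in HoxD they had the other sign (rho -0.32, r -0.26, 7 genes). The genes with the highest level per kb were Hoxa11 with Hoxa10 (mean 39.9 CPM per kb) in HoxA and Hoxb6 (20.01 CPM per kb) in HoxB. In loop to collecting duct-like cells the HoxB order was similar (rho 0.87, r 0.73), with Hoxb9 at the top (27.6 CPM per kb). HoxA showed no such order in endothelium-like cells (rho -0.13, r -0.16) or in immune-like cells (rho 0.04, r -0.11). HoxB peaked at Hoxb5, a thoracic gene, in endothelium-like cells (28.1 CPM per kb). In HoxC, Hoxc10 had the highest level per kb in all 4 classes, with means of 61.8 in proximal tubule-like, 64.7 in loop to collecting duct-like, 13.9 in endothelium-like and 13.7 CPM per kb in immune-like cells. In HoxD the highest were Hoxd9 in proximal tubule-like cells (13.3 CPM per kb), Hoxd10 in loop to collecting duct-like (29.9) and endothelium-like cells (16.7), and Hoxd11 in immune-like cells (1.74).

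The 7 genes without a common region were read in each library's own peaks, as CPM over all of them. Hoxb13, Hoxc12 and Hoxd12 had no peak in any library. Hoxc11, one of the kidney paralogs, had no peak in old replicate 1 and stood at 16.1 and 15.1 CPM in proximal tubule-like cells of old replicate 2 and the young library, against 0.815 CPM in young immune-like cells. Hoxa13, a gene of the hindgut and digits, had no peak in old replicate 1 and 5.04 and 6.69 CPM in proximal tubule-like cells of old replicate 2 and the young library, against 6.11 CPM in young immune-like cells. In endothelium-like cells of the same pair of libraries it had 2.17 and 12.6 CPM, from 2 and 8 counts. Hoxd8 had a peak in old replicate 1 and a peak in another region in the young library, so their values are not levels of the same DNA. The peak of old replicate 1 had 63.2 CPM in loop to collecting duct-like cells (35 counts in 33 cells) and 0.756 CPM in proximal tubule-like cells. The young peak had 15.5 CPM in loop to collecting duct-like cells and 9.99 CPM in proximal tubule-like cells. Hoxc13, a hair and nail gene, had a peak in old replicate 1 alone, with 8.70 CPM in proximal tubule-like and 1.19 CPM in immune-like cells. Since peaks were called in each library on its own mix of cells, a missing peak in old replicate 1 is not a level of 0. Hoxd13 had 2.04, 3.09 and 2.55 CPM in proximal tubule-like cells and 0.819 and 2.02 CPM in immune-like cells.

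Old and young kidneys were compared within each class, 2 libraries against 1, with the lone young library taken to vary like the old pair. In proximal tubule-like cells 0 of 32 tested Hox genes were called by edgeR or DESeq2, and 1 had an unadjusted p under 0.05 by edgeR. Over all genes edgeR called 0.322%, and 759 of 24215 had an unadjusted p under 0.05. In loop to collecting duct-like cells the count was 0 of 31 by both tools, against 0.0457% of all genes called. By edgeR, 3 had an unadjusted p under 0.05, of which Hoxa10 and Hoxa11 are 1 measurement, against 533 of 21893 genes. In endothelium-like cells it was 0 of 24 by both tools, with 0 at an unadjusted p under 0.05, against 0.43% of all genes called and 1687 of 17922 at an unadjusted p under 0.05. A test of whether the age difference itself differed from that in proximal tubule-like cells called 0 of 31 in loop to collecting duct-like cells (4 at an unadjusted p under 0.05, against 473 of 23680 genes, and 0.00845% of all genes called) and 0 of 31 in endothelium-like cells (0 at an unadjusted p under 0.05, against 1602 of 23680 genes, and 0.304% called), again by both tools.

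The closest to a call was Hoxc10 in proximal tubule-like cells, at 96.7 and 68.0 CPM in the old libraries and 44.2 CPM in the young one (log2 0.87, SE 0.24, edgeR adjusted p = 0.0904). With no doublets removed it was called (log2 1.42, edgeR adjusted p = 0.00398). Next in that class came Hoxd4, with 24.1 and 30.3 CPM in old and 18.9 CPM in young (log2 0.55, SE 0.33), and Hoxb9, with 47.4 and 35.5 CPM in old and 29.8 CPM in young (log2 0.44, SE 0.28). Most old proximal tubule-like cells were in another cluster than the young ones: 45.7% and 63.8% of those in old replicates 1 and 2 were in cluster 2, against 0.337% of the young, and 78.4% of the young were in cluster 0. In loop to collecting duct-like cells, the Hoxa10 and Hoxa11 region stood at 8.21 and 11.04 CPM in old and 29.3 CPM in young (log2 -1.53, SE 0.66, edgeR adjusted p = 1.00), and Hoxa9, a gene of blood progenitors and the lumbar spine, at 43.1 and 25.9 CPM in old and 60.0 CPM in young (log2 -0.94, SE 0.43). The age difference of the Hoxa10 and Hoxa11 region was lower there than in proximal tubule-like cells by a log2 of -1.74 (SE 0.72, edgeR adjusted p = 1.00). In endothelium-like cells, Hoxb8 had 93.0 and 83.2 CPM in old and 56.2 CPM in young (log2 0.66, SE 0.38) and Hoxb7 67.4 and 63.6 CPM in old and 40.4 CPM in young (log2 0.70, SE 0.44). The counts of Hoxb7 are part of those of Hoxb8, so these are not separate results. These genes were named for p-values among the smallest of their class, so old values on one side of the young value carry no further weight. None of the differences passed the threshold.

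Within proximal tubule-like cells, Hoxc10 was unevenly spread. Cluster 6, which earlier results of these data had already linked to Hoxc10, held 25%, 17.1% and 3.95% of the proximal tubule-like cells. There Hoxc10, counted over the region at its start (chr15:102966265-102967391), stood at 241, 150 and 106 CPM. Elsewhere it was at 34.1 and 53.6 CPM in cluster 2 of old replicates 1 and 2, at 44.8, 49.7 and 32.3 CPM in cluster 4, and at 43.6 CPM in cluster 0 of the young library. Cluster 6 was thus 6.90, 2.82 and 2.48 times the other proximal tubule-like cells of the same library, although chromosome 15 took no part in the clustering. Of 19166 genes with at least 1000 proximal tubule counts, 20 (0.104%), Hoxc10 included, were at least 2.48 times as high in cluster 6 in every library. That is the lowest ratio of Hoxc10, and its higher ratios were not matched library by library. Among the other Hox genes the next highest were Hoxb7, at 1.27 to 1.69 times, and Hoxb8, which takes in every region of Hoxb7, at 1.26 to 1.60 times. The ribosomal RNA locus Rn18s-rs5 was among the 10 leading genes of the cluster, and its part in the Hoxc10 level was not tested. Without cluster 6 the old minus young difference of Hoxc10 was 0.11 on the log2 scale (SE 0.26), a setting added after the data were seen. Cluster 6 was left out for its high Hoxc10 and held a larger share of the old cells. A smaller difference without it follows in part from that choice. Within cluster 6, Hoxc10 stood at 241 and 150 CPM in old and 106 CPM in young, which was not tested.

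**Figure D5:**
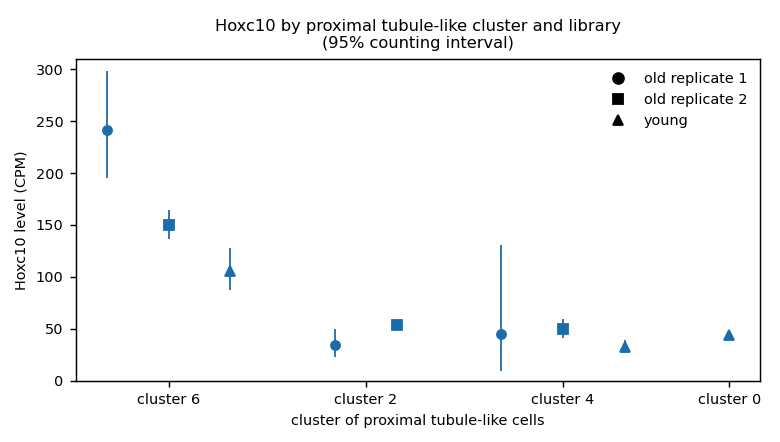
Hoxc10 level, in CPM, in each cluster of proximal tubule-like cells and each library, with the 95% counting interval. Cluster 6 lies at 106 to 241 CPM, above the other clusters in every library.

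Partners and neighbours of the Hox genes were read from lists, and their counts stand against 30.7% of all genes called higher and 24.8% lower in proximal tubule-like than in immune-like cells. The TALE cofactors, homeodomain proteins that bind DNA together with Hox proteins, had 3 of 9 higher and 3 lower in that comparison, which is near those shares, and a median of 0.06 on the log2 scale, against 0.03 over all genes. Meis2 (log2 3.67) and Pknox2 (1.75) were among the higher ones, and Pbx4 (-1.21), Pbx3 (-0.43) and Pknox1 (-0.37) were lower. Between loop to collecting duct-like and proximal tubule-like cells, 1 of 9 was higher (Pknox2, log2 0.87) and 2 lower (Meis1, -1.68, and Meis2, -0.92), against 6.84% and 13.1% of all genes. Of the Polycomb and trithorax regulators, 2 of 15 were higher and 6 lower in proximal tubule-like than in immune-like cells, with a median of -0.30. That is 8 of 15 either way, which is near the 55.6% of all genes, and 7 were not called. The higher ones were Kmt2a (log2 1.03), the trithorax methyltransferase of Hox clusters, and Cbx2 (0.84). Ezh2 and Eed, subunits of the Polycomb complex that methylates histone H3, were among the lower ones (log2 -0.93 and -0.86). The part of these regulators in the Hox levels was not tested. Of the kidney patterning genes, 10 of 13 tested were higher and 2 lower, against 30.7% and 24.8% of all genes, with a median of 3.84, led by Sall1 (log2 7.93), Emx2 (6.94) and Pax8 (6.18). Gata3 and Ret, genes of the ureteric bud, were lower (log2 -2.27 and -1.27), and Gata3 was higher in loop to collecting duct-like than in proximal tubule-like cells (log2 2.36). The ParaHox and Cdx genes, relatives of the Hox genes, had 2 of 3 tested higher, Cdx1 (log2 5.85) and Gsx1 (2.66).

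Genes inside or beside the clusters had 9 of 17 tested higher and 3 lower in proximal tubule-like than in immune-like cells, against 30.7% and 24.8% of all genes, with a median of 1.27 on the log2 scale. The 3 lower ones, Lnpk (log2 -0.97), Smug1 (-1.11) and Calcoco1 (-0.50), are genes outside the HoxD and HoxC clusters. Among the microRNAs, Mir10b (log2 6.13), Mir196a-1 (5.73) and Mir196b (4.48) were higher, as was Mir615 (2.22), and Mir196a-2 was not tested. Mir10a, whose window has the same counts as that of Hoxb4, was not called (log2 -0.69, edgeR adjusted p = 0.117). The miR-10 seed therefore has 1 copy in a window called higher in proximal tubule-like cells and 1 in a window that was not called. Host genes and microRNAs of a cluster share regions with Hox genes, so these values are not independent of theirs.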

How the data were processed

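Open chromatin was measured by mtscATAC-seq in 3 mouse kidney libraries, grouped as old or young from the sample titles. The deposited tables hold raw counts per peak and barcode, with no normalization and with peaks called on each library alone; the authors used Cell Ranger ATAC 2.1.0 and build mm10, per the submitters' processing notes. Most of the deposited counts were even (89.5% to 94.3% of values per library), so exact 95% counting intervals use fragments, taken as the count divided by 2 and rounded up, and cover counting error only.

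Peaks were merged at an overlap of at least 1 bp (bedtools 2.31.1) into 250005 regions, of which 72317 had a peak in every library; these held 67.4% of the counts in old replicate 1, the lowest share, and 82.7% in the young library, the highest. Barcodes with at least 1000 counts were kept, and doublets were removed by simulated-doublet scores at 0.8% per 1000 barcodes. Latent semantic indexing (30 components, the first dropped) was run on 52944 regions outside chromosomes 2, 6, 11 and 15, and Leiden clustering (20 neighbours, resolution 1.0) gave 15 clusters. Clusters were named from marker sets with a margin of 0.25 (log2), 3 or more raised markers and a check of their 10 leading genes, and rebuilt names may differ from the study's; the rest stayed unnamed.

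Counts were summed per gene, library and class (at least 20 cells) and tested with edgeR 4.0.16 (TMM factors, its own filter on low counts, quasi-likelihood test, Benjamini-Hochberg adjustment over all genes), with library as a block for class comparisons, since the classes of a library come from the same sample. The age comparisons had no block. Scripts were tested on simulated data. Alternatives were DESeq2 1.42.0, other normalization, filters, regions, windows, cell filters and clusterings, and leaving out each library. The genes named are the highest per kb of each cluster and class, the 5 largest called differences per class comparison and, for age, the 3 smallest p; other called genes and those not called against immune-like cells were named after their values were seen, as was Hoxc10 by cluster. The Hox genes, lists and tests were chosen with earlier results of these data known. Some genes counted in the lists are not reported here by name or in the figures.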

Additional observations from a re-analysis of the deposited data

Results flagged for a closer look

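Hoxd9 stood at 214 CPM in cluster 14, an unnamed cluster of 74 cells (66 of them from the young library, 8 from old replicate 2) that entered no comparison, and its highest level in any named class of a library was 24.5 CPM. This was 58 counts in 19 cells, with at most 6 in 1 cell. Hoxd1 stood at 51.6 CPM in the same cluster, against a highest class level of 15.6 CPM, from 14 counts in 7 cells. Both were singled out as signal in cells that the comparisons do not use. The cluster held 271174 counts in common regions, and its cells had a median count 0.154 times that of their own libraries. Neither level has a replicate check.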

How the results depend on the processing

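With library as a block, the classes of a library are compared within it; with no replicate block the counts of called Hox genes were 28 in proximal tubule-like, 23 in loop to collecting duct-like and 19 in endothelium-like against immune-like cells, 10 for proximal tubule-like against endothelium-like and 6 for loop to collecting duct-like against proximal tubule-like cells. No paired analysis of age was possible, since nothing in the labels pairs an old kidney with the young one. Leaving out each library in turn gave 24 to 25, 19 to 20, 14 to 16, 6 to 11 and 1 to 7 called genes for the same 5 comparisons; without old replicate 1 or the young library, immune-like cells come from 1 library, taken to vary like the other classes. With windows of 1 kb on either side of the gene start, for which 14 Hox genes could be tested, the counts were 12, 10, 8, 2 and 2, which follows in part from fewer genes tested. With all merged regions, 2 genes (Hoxd10 and Hoxb9) were called between loop to collecting duct-like and proximal tubule-like cells, and with no doublets removed, 1 (Hoxc10) was called between old and young proximal tubule-like cells; the cause was not tested. DESeq2 gave 28, 22, 21, 10 and 7. In the main fit, 55.6%, 47.4%, 29.1%, 40.7% and 19.9% of all genes were called either way in the same 5 comparisons. The shares of all genes under the alternatives are not given here, so these counts show only how the Hox calls move. Over regions in the window of 1 Hox gene only, 19 of 22 were called in proximal tubule-like against immune-like cells. Among the genes named by rule, 436 values under an alternative kept their direction and call, 15 lost the call, 1 gained it, 2 untested values moved by more than the spread and 0 reversed. Of these, the ones that lost it were Hoxc8 in endothelium-like against immune-like cells, Hoxc6 in proximal tubule-like against endothelium-like cells, and Hoxa2, Hoxa10, Hoxa11 and Hoxb9 in loop to collecting duct-like against proximal tubule-like cells. Outside that rule, Hoxb6, Hoxd3 and Hoxb3 (proximal tubule-like against endothelium-like) and Hoxa3 (loop to collecting duct-like against proximal tubule-like) also missed the threshold without old replicate 2. Depth limits the 33 loop to collecting duct-like cells of old replicate 1 and the 48 endothelium-like cells of the young library most, where a level of 0 is not evidence of closed chromatin.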
